A study of Mus musculus with 2 samples.

Results

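The colony-stimulating factors and their receptors were examined as a group of 8 genes, taken by name and matched to the deposited tables through their Entrez identifiers. The ligand genes are Csf1, Csf2 and Il34, and the receptor genes are Csf1r, Csf2ra, Csf2rb, Csf2rb2 and Csf3r. Of these 8 genes, 7 were listed among the 15605 genes of the 2 tables, and 6 reached 50 estimated counts in at least 1 library, the level at which a ratio between libraries was read. RNA came from peritoneal macrophages, phagocytes of the abdominal cavity, of C57BL/6 mice aged 6 to 8 weeks. One library was from wild type cells and the other from lgmn-/- cells, which lack legumain, a lysosomal cysteine protease. Both had spent 4 days in co-culture with EO771, a mouse mammary carcinoma line. How the Lgmn allele was made, how many mice each library pools and whether a barrier separated the cell types are not given in the labels.

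With 1 library per genotype no difference could be set against variation between mice, and no p-value was computed. A ratio is the knockout count over the wild type count after scaling with trimmed-mean (TMM) factors, and a log2 ratio has 1 scaled count added to each side. The 95% intervals cover counting error only. They are exact Poisson intervals for a count and exact Clopper-Pearson intervals for a ratio. The libraries held 11885784 (wild type) and 11740202 (knockout) estimated counts. Lgmn itself had 23550 estimated counts in wild type cells and 426 in knockout cells, in the order of the labels. All 10 macrophage markers examined were listed in both libraries, with Adgre1, which encodes F4/80, at 2641 and 4276 counts.

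Colony-stimulating factors are secreted proteins that keep myeloid cells alive and direct their growth and maturation. Csf1 and interleukin 34 share 1 receptor, the tyrosine kinase encoded by Csf1r, on which most tissue macrophages depend for survival. Granulocyte-macrophage colony-stimulating factor, the product of Csf2, binds the alpha chain encoded by Csf2ra, which signals together with the beta common chain encoded by Csf2rb through JAK2 and STAT5. The same beta chain serves interleukin 3 and interleukin 5, while mice also carry Csf2rb2, whose product serves interleukin 3 alone. Csf3r encodes the receptor for granulocyte colony-stimulating factor and is best known from neutrophils.

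Csf1r, the beta chains and Csf2ra were expressed at much higher levels than the ligands in both libraries. On the FPKM scale, which divides by transcript length and library size, the order in both libraries was Csf1r, Csf2rb, Csf2rb2, Csf2ra, Csf3r, Csf1 and Csf2. Wild type FPKM ran from 83.8 for Csf1r to 0.08 for Csf2, and knockout FPKM from 193.0 to 0.17. Csf1r ranked 949th by FPKM among wild type transcripts and 480th among those of the knockout. The only neighbours in this order whose counts had overlapping intervals, on transcripts of similar length, were Csf3r and Csf1 in the wild type library, with 241 (212 to 273) and 208 (181 to 238) counts. In the knockout library the same genes had 515 (471 to 561) and 137 (115 to 162) counts, which do not overlap.

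**Figure D1:**
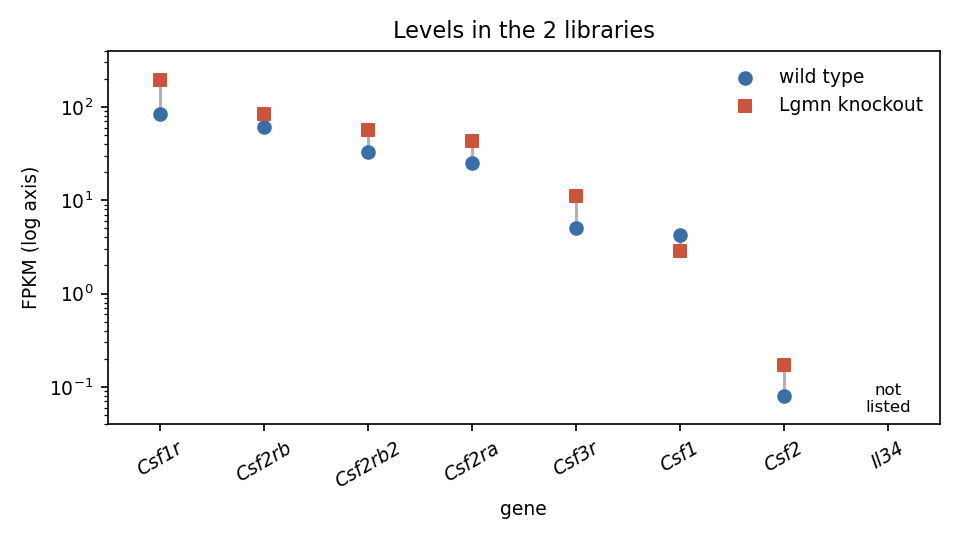
FPKM (log axis) of each gene in the wild type library (circles) and the Lgmn knockout library (squares), 1 library each, with a grey line joining the 2 values. Csf1r, Csf2rb, Csf2rb2, Csf2ra, Csf3r and Csf2 sit higher in the knockout library and Csf1 lower; Csf2 rests on 1 and 2 counts and Il34 is not listed.

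Csf1r and Csf3r had the largest TMM-scaled ratios among the receptors, and their ratios could not be ranked beyond counting error. Csf1r had 3932 estimated counts (3810 to 4057) in wild type and 8936 (8752 to 9123) in knockout cells, or 83.8 and 193.0 FPKM. The count intervals do not overlap. After scaling it was 1.95-fold higher in the knockout library (1.88 to 2.02), a log2 ratio of 0.96, just short of 2-fold. Of the 9498 genes tested, 6.51% had a larger ratio. The gene lies on chromosome 18 at 61105572 to 61131139 in GRCm38. Among the 10 macrophage markers 1 passed 2-fold upwards and 0 downwards, beside 6.05% and 1.74% of all genes. Their median log2 ratio was 0.37, so with TMM scaling Csf1r lay above most of them. Cd68, a lysosomal glycoprotein of macrophages, had a log2 ratio of -0.70, and Mertk, a receptor for dying cells, one of 1.23. The ratios also followed transcript length, a trend described below. With that trend subtracted, Csf1r was at 0.75, below Mertk at 1.08 and C1qa at 0.79. The markers C1qc and C1qb were then close to Csf1r, at 0.70 and 0.64, and the other markers were at 0.39 or lower. In bulk RNA, more cells of a type and more RNA per cell cannot be told apart.

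Csf3r was higher in the knockout library by a similar factor, at a much lower level. Its estimated counts were 241 and 515, or 5.09 and 11.2 FPKM, and the ratio was 1.83 (1.57 to 2.15), with a log2 ratio of 0.87. The genes lie on chromosome 4 at 126023441 to 126044975 for Csf3r and on chromosome 3 at 107741048 to 107760469 for Csf1. Since Csf3r is a neutrophil gene, neutrophil markers were read beside it. Of 10 such markers 4 could be tested and 0 passed 2-fold, beside 6.05% of all genes upwards and 1.74% downwards. The summed FPKM of all 10 was 202 in wild type and 190 in knockout cells. Most of it came from Mmp8, at 113.4 and 77.2, and S100a8, at 83.0 and 106.4. S100a9, abundant in neutrophils, had 0 and 1 counts, Retnlg 1 and 1, and Ly6g 6 and 12. S100a8, the partner of S100a9, had 361 and 456 counts, Mmp8, a collagenase, 3350 and 2251, and Cxcr2, a chemokine receptor, 103 and 106. Mmp9, also tested, had 51 and 36. The part of neutrophils in the Csf3r difference was not tested.

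With TMM scaling, Csf2ra and the beta chains differed by less than Csf1r and Csf3r. With the length trend subtracted this did not hold for Csf2ra, at a log2 ratio of 0.70 beside 0.75 for Csf1r and 0.66 for Csf3r. Csf2ra, the ligand-binding alpha chain (chromosome 19, 61217191 to 61228461), had 562 (516 to 610) and 944 (885 to 1006) estimated counts, or 25.3 and 43.2 FPKM. It was 1.44-fold higher in the knockout library (1.30 to 1.60). Csf2rb, the beta common chain (chromosome 15, 78325800 to 78351001), had 3501 (3386 to 3619) and 4858 (4722 to 4997) counts, or 60.4 and 85.0 FPKM. Its ratio was 1.19 (1.14 to 1.24), the nearest to 1 among the 6 genes tested. Csf2rb2, the interleukin 3 beta chain (chromosome 15, 78282507 to 78305721), had 1847 (1764 to 1933) and 3194 (3084 to 3307) counts, or 32.5 and 57.0 FPKM. It was 1.48-fold higher (1.40 to 1.57). For each of these chains the count intervals of the libraries are apart and the knockout library is the higher one.

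Csf2rb and Csf2rb2 are neighbouring copies, and their counts depend on how reads were divided between them. Their GENCODE M21 coding sequences match at 2505 of 2631 aligned bases, or 95.2%. The following stretch, bases 25 to 114 of both coding sequences, is shown because it holds about the average number of differences. It spans exons 2 and 3, at chr15:78335231-78336373 (plus strand) for Csf2rb and chr15:78297077-78298205 (minus strand) for Csf2rb2 in GRCm38, and capitals mark the 4 bases that differ.
Csf2rb: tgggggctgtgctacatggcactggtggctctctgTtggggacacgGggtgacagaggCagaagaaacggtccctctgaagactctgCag
Csf2rb2: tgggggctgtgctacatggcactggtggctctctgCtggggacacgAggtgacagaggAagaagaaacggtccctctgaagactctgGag

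The longest identical coding stretch of the copies has 242 bases, in exon 14, the last exon of both transcripts. It is shown because a read that falls wholly inside it fits both genes equally. It lies at chr15:78348577-78348818 for Csf2rb and chr15:78284630-78284871 for Csf2rb2.
Shared stretch: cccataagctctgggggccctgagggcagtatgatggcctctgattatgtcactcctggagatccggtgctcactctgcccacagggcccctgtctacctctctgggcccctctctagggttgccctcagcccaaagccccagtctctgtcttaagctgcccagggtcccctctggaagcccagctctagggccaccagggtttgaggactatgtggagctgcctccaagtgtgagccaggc

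Over the whole transcripts, 18.9% of the 50-base stretches of Csf2rb also occur in Csf2rb2, and 7.16% of the 100-base stretches do. The labels do not state the read length. The split between the copies is therefore an estimate of the authors' counting, while their sum does not depend on that split. Summed, the copies had 5348 and 8052 counts, a ratio of 1.29 (1.25 to 1.34). Csf2rb2 made up 34.5% of the pair (33.3 to 35.8) in wild type and 39.7% (38.6 to 40.7) in knockout cells, with exact binomial intervals that cover counting error and not the error of the split.

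With TMM scaling, Csf1 was the only one of the 6 genes tested that was lower in the knockout library. It encodes the main survival factor of macrophages, and had 208 counts in wild type and 137 in knockout cells, or 4.23 and 2.87 FPKM. After scaling it was 1.77-fold lower (1.42 to 2.21), a log2 ratio of -0.82, and 2.73% of the genes tested had a lower ratio. The mean transcript length that the tables give for Csf1, weighted by the abundance of its transcripts, was 4053 bases in the wild type and 3989 in the knockout library. Csf1 transcripts of 4176, 3058 and 2097 bases are found in GENCODE M21, and both means lie near the longest of these. The transcripts that the authors counted may differ in length from these.

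Most markers of fibroblasts and mesothelial cells, which can also make Csf1, were lower in the same library. Of 6 fibroblast markers tested 5 passed 2-fold downwards and 0 upwards, beside 1.74% and 6.05% of all genes. Thy1 went the other way, with 140 and 198 counts and a ratio of 1.21 (0.972 to 1.52). The summed FPKM of all 8 was 34.2 in wild type and 17.8 in knockout cells. Dcn, which encodes the matrix proteoglycan decorin, had 430 and 125 counts, and Col1a2, a collagen chain, 314 and 83. Neither Lum nor Pdgfrb exceeded 2 counts. Of 7 mesothelial markers 1 could be tested, Krt19, with 67 and 4 counts, and the summed FPKM was 5.76 and 0.78. Krt19 reached the count needed for testing only in the wild type library, a rule of entry that favours low ratios. The same held for the fibroblast markers Col1a1, Col3a1 and Pdgfra, while Dcn and Col1a2 reached that count in both libraries. Msln, Upk3b and Lrrn4 had 1, 5 and 7 counts in wild type cells and 0 in knockout cells. The part of these cells in the Csf1 difference was not tested.

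The other ligands were too low to compare. Csf2 (chromosome 11, 54247270 to 54249899) had 1 count in wild type cells (0.0253 to 5.57) and 2 in knockout cells (0.242 to 7.22), or 0.08 and 0.17 FPKM. The ratio of 1.72 had an interval from 0.0893 to 101, so no direction can be read. Il34 (chromosome 8, 110741829 to 110805949) was in neither table. The lowest FPKM in each table was 0.01, so Il34 lay under the authors' limit or was not counted. Csf3, the ligand of the Csf3 receptor and not 1 of the 8 genes, had 3 and 2 counts. Transcripts of T and NK cells, which can make Csf2, were present, with Cd3e at 2 and 7 counts and Klrd1 at 29 and 139. Of 7 such markers tested 4 passed 2-fold upwards and 0 downwards, beside 6.05% and 1.74% of all genes. The 4 had low counts. They were Klrd1, Klrb1c at 23 and 107, and, only just past 2-fold, Cd3d at 22 and 54 and Lck at 31 and 74. Each of the 4 reached the count needed for testing only in the knockout library. Among genes this low, that rule of entry favours high ratios, so the share of 4 in 7 does not measure a shift. The summed FPKM of all 10 was 281 and 311, most of it from Il7r at 260.0 and 262.9.

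None of the 6 genes tested differed by 2-fold or more with TMM scaling. Over all 9498 genes tested, 6.05% were higher by 2-fold or more in the knockout library and 1.74% were lower by as much. The median log2 ratio was 0.55 over the 6 genes and 0.00 over all genes tested. At a threshold of 1.5-fold, Csf1r and Csf3r were higher and Csf1 was lower, against 16.4% of all genes higher and 6.39% lower. Scaling by library totals instead moved the median of all genes by 0.24 and put Csf1r at 2.30-fold and Csf3r at 2.16-fold higher. That made 2 of 6 genes higher by 2-fold or more and 0 lower, beside 10.9% and 1.13% of all genes. Deposited FPKM also put 2 of 6 past 2-fold, beside 9.87% of all genes higher and 1.07% lower, with Csf1r at 2.30-fold and Csf3r at 2.19-fold.

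**Figure D2:**
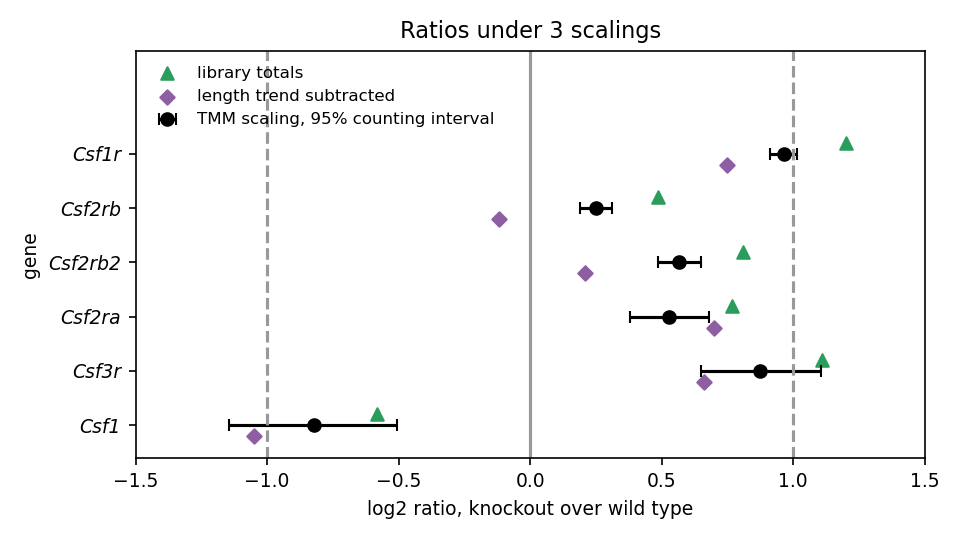
Log2 ratio of knockout over wild type for the 6 genes tested, with TMM scaling (circles, bars are 95% counting intervals), library totals (triangles) and the length trend subtracted (diamonds); dashed lines mark 2-fold. Of these 3 settings, Csf1r and Csf3r lie past 2-fold only with library totals, Csf1 only with the length trend subtracted (-1.05), and Csf2rb changes sign (0.25 and -0.12).

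The ratio between the libraries followed transcript length over all genes. The median log2 ratio was -0.37 among the shortest of 10 equal groups of genes and 0.77 among the longest. Subtracting this trend turned the direction of Csf2rb and took Csf1 past 2-fold. Csf2rb, whose transcript of 4776 bases is the longest of the 6, went from a log2 ratio of 0.25 to -0.12, so its direction depends on this setting. Csf1 went from -0.82 to -1.05, which is 2.08-fold lower, beside 1.90% of all genes lower by 2-fold or more after the same adjustment and 2.14% higher. Csf2rb2 went from 0.57 to 0.21 and the summed beta chains from 0.37 to 0.01. Csf2ra, with the shortest transcript at 1850 bases, went from 0.53 to 0.70. Csf1r and Csf3r were at 0.75 and 0.66, and 4.71% and 6.16% of all genes tested had larger adjusted ratios.

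**Figure D3:**
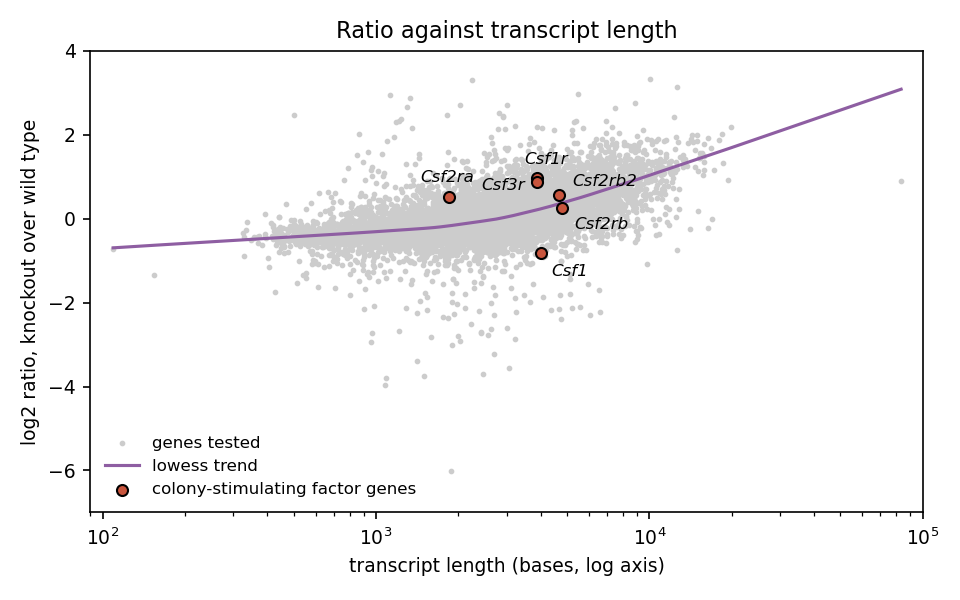
Log2 ratio of knockout over wild type against transcript length (log axis) for the 9498 genes tested (grey), with the lowess trend (line) and the 6 genes tested here (filled circles). Csf1r, Csf3r and Csf2ra lie above the trend, Csf1 lies below it, and Csf2rb and Csf2rb2 lie near it.

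Ratios between 2 genes inside 1 library need no scaling between libraries, and for genes of like length the length trend nearly cancels. The pairs were chosen after the values were seen. For each count of Csf1, Csf1r had 18.9 counts in wild type cells and 65.2 in knockout cells. The change was 3.45-fold (2.76 to 4.33, exact conditional interval), and 3.50-fold with the length trend subtracted. The counts of Csf3r per count of Csf1 were 1.16 and 3.76, a change of 3.24-fold (2.47 to 4.26). Both receptors have transcripts about as long as that of Csf1. Csf1r per count of Csf3r was 16.3 and 17.4, a change of 1.06-fold with an interval of 0.905 to 1.25. Csf1r per count of Csf2rb was 1.12 and 1.84, a change of 1.64-fold (1.55 to 1.74), which is beyond counting error. For Csf1r per count of Csf2rb2 the change was 1.31-fold (1.23 to 1.41). Neither interval covers the error of the split between the copies. Both copies have longer transcripts than Csf1r, and with the length trend subtracted the changes were 1.83-fold and 1.45-fold.

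Short sequences near annotated start sites of 3 receptor genes are shown because they hold the core of a binding site. PU.1, a transcription factor of the macrophage lineage, binds sites with the core GAGGAA. The 250 bases before a RefSeq start site in GRCm38.p6 were searched for GAGGAA on both strands. This covered Csf1, Csf2, Csf2ra, Csf2rb2 and Csf3r. No such sequence was on hand for Csf1r, Csf2rb and Il34, so they were not searched. Csf2ra, Csf2rb2 and Csf3r held a match and Csf1 and Csf2 held none, while 23.3% of 32851 promoters held at least 1. Capitals mark the matches within 30 bases, at chr19:61228419-61228448 (minus strand), chr15:78305871-78305900 (minus strand) and chr4:126024561-126024590 (plus strand). Csf2ra holds 2 matches side by side, and in Csf2rb2 the match reads on the opposite strand.
Csf2ra: ttcccaacctgcagatGAGGAAGAGGAAgc
Csf2rb2: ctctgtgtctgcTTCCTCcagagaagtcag
Csf3r: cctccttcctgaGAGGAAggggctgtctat
In Csf3r the match lies 86 bases before the start searched and inside an exon that GENCODE M21 begins further upstream. In Csf2ra the matches begin 14 and 8 bases before the start searched, and the GENCODE M21 exon covers the nearer one and part of the other. The RefSeq genes reach further upstream than these starts, to 126023441 for Csf3r and 61228461 for Csf2ra. Both of these 30-base sequences therefore lie inside the RefSeq genes. A match of letters shows no binding, no factor was measured here, and the part of PU.1 in the ratios was not tested.

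Of 12 transcription factors known from the Csf1r and Csf2ra promoters, 11 could be tested and 0 passed 2-fold in either direction. Of all genes, 6.05% passed it upwards and 1.74% downwards. The median log2 ratio of the factors was 0.31, and 0.20 with the length trend subtracted. Spi1, which encodes PU.1, had 2732 and 3115 counts and a ratio of 0.978 (0.929 to 1.03). Fli1, an ETS factor, had the largest ratio in size, at 1.71 (1.45 to 2.02). Irf8, which directs monocyte development, was 1.47-fold higher (1.38 to 1.57), and Egr2, a zinc finger factor induced by Csf1, was 1.49-fold lower.

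Partner chains and related receptors were mostly low or differed by less than 2-fold. Of 11 such genes 7 were listed, 4 could be tested and 0 passed 2-fold, beside 6.05% of all genes upwards and 1.74% downwards. Il3ra, the alpha chain for interleukin 3, had 577 and 514 counts, or 34.8 and 31.4 FPKM, and a ratio of 0.764 (0.677 to 0.862). Its log2 ratio of -0.39 became -0.14 with the length trend subtracted and -0.15 with library totals. Both lie outside that interval, so the size of the difference depends on the scaling. Il5ra, the alpha chain for interleukin 5, had 5 and 13 counts, and the ligand genes Il3 and Il5 were in neither table. Sdc1, which encodes syndecan 1, a binding partner of interleukin 34, had 6196 and 4958 counts and was 1.46-fold lower. Ptprz1, another receptor for interleukin 34, was in neither table. Kit, of the same receptor family as Csf1r, had 11 and 18 counts, its ligand gene Kitl 77 and 88, and Flt3l 71 and 64, while Flt3 was in neither table.

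Genes that act downstream of the Csf1 receptor included 4 past 2-fold upwards and 0 downwards, of 26 tested, beside 6.05% and 1.74% of all genes. The median log2 ratio was 0.29. With the length trend subtracted it was 0.17, and 1 gene was past 2-fold upwards, beside 2.14% of all genes. Socs1, an inhibitor of cytokine signalling, had 37 and 227 counts and was 5.26-fold higher (3.71 to 7.67), and its log2 ratio went from 2.37 to 2.64 on length adjustment. Cbl, the ubiquitin ligase that sends the activated receptor to the lysosome, was 2.49-fold higher (2.03 to 3.06), and adjustment took its log2 ratio from 1.31 to 0.89. Sos1, a Ras activator with a long transcript, had 46 and 120 counts, and its log2 ratio went from 1.15 to 0.22. The fourth was Pik3cd, a catalytic subunit of phosphoinositide 3-kinase, at 165 and 401 counts.

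Of 19 genes tested downstream of the beta common chain and the Csf3 receptor, 1 passed 2-fold upwards and 1 downwards, beside the 6.05% and 1.74% of all genes. The median log2 ratio was 0.31, and 0.06 with the length trend subtracted. The higher gene was Socs1 again, which stands in both lists. Osm, a cytokine gene induced through STAT5, had 367 and 156 counts and was 2.74-fold lower (2.27 to 3.33). Tyk2, a Janus kinase, had 134 and 301 counts and was 1.93-fold higher (1.57 to 2.38). Cish, a direct target of STAT5, had 30 and 51 counts, with a ratio of 1.46 and an interval of 0.911 to 2.37 that includes 1.

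Of 10 genes known to be raised in macrophages by Csf2, 7 could be tested and 0 passed 2-fold in either direction. Of all genes, 6.05% passed it upwards and 1.74% downwards. Only 1 of the 7 had a log2 ratio above 0. The median log2 ratio was -0.15, while it was 0.09 with library totals and 0.10 with deposited FPKM, so its sign depends on the scaling. With the length trend subtracted the median was -0.56. One gene, Cd1d1, then passed 2-fold upwards at a log2 value of 1.12, beside 2.14% of all genes. Pparg, a nuclear receptor that Csf2 induces in alveolar macrophages, was 1.65-fold lower, with 611 and 432 counts. Bhlhe40, a transcriptional repressor, was 1.63-fold lower, with 2297 and 1647 counts. Cd1d1, which presents lipids, went the other way, with 141 and 319 counts and a ratio of 1.94 (1.59 to 2.38). Ccl17 and Ccl22, chemokine genes, did not exceed 7 counts.

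The receptor encoded by Csf1r is cut from the cell surface by the protease encoded by Adam17. Of 5 genes of this release, 4 could be tested, with 0 past 2-fold upwards and 1 downwards, beside 6.05% and 1.74% of all genes. Adam17 had 995 and 1816 counts and was 1.57-fold higher (1.45 to 1.69), and Rhbdf2, which brings the protease to the surface, had 136 and 228 counts and was 1.44-fold higher. Their log2 ratios of 0.65 and 0.52 were 0.33 and 0.34 with the length trend subtracted. Timp3, an inhibitor of this protease, had 133 and 34 counts and was 4.56-fold lower (3.11 to 6.86). Most fibroblast markers given above were lower in the same library, and the part of fibroblasts in the Timp3 difference was not tested.

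**Figure D4:**
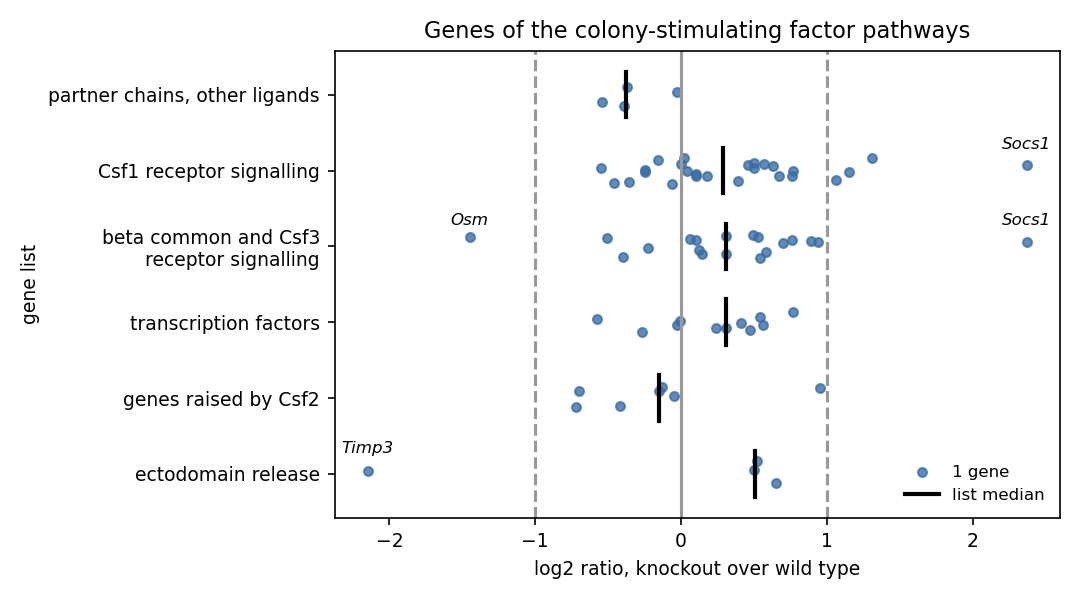
Log2 ratio of knockout over wild type for each gene tested (circles) in 6 lists of pathway genes, with the list median (black bar) and dashed lines at 2-fold. Socs1 is in both signalling lists at 2.37, Osm is at -1.45 and Timp3 at -2.15; medians run from -0.38 for partner chains to 0.51 for ectodomain release.

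Markers of further cell types were low in both libraries, though some were higher in the knockout library. Of 8 carcinoma markers 5 were listed and 0 could be tested, with a summed FPKM of 0.90 and 0.85, and Epcam had 1 and 2 counts. Of 6 dendritic cell markers 1 could be tested, Clec9a, with 13 and 74 counts and a ratio of 4.88 (2.69 to 9.6). Xcr1 had 6 and 23 counts and Zbtb46 7 and 6. The summed FPKM was 0.69 and 2.98, while Flt3 was in neither table. Of 7 markers of eosinophils, mast cells and basophils 3 were listed, with a summed FPKM of 2.71 and 5.83. The 1 that could be tested, Siglecf, had 42 and 127 counts and a ratio of 2.59 (1.82 to 3.77). Clec9a and Siglecf reached the count needed for testing only in the knockout library, a rule of entry that favours high ratios. Prg2, Epx, Fcer1a and Ms4a2 were in neither table. Endothelial markers summed to 1.44 and 2.53. The part of these cells in the receptor differences was not tested.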

How the data were processed

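Per the labels' protocols, RNA of 1 wild type and 1 lgmn-/- library was sequenced on BGISEQ-500. The submitters' processing notes name mm10, RSEM, HISAT2 and Bowtie2 and give neither versions nor roles. The authors deposited an estimated count for each Entrez gene listed, named an expected count in the file headers. It was taken as not scaled between libraries, which the headers do not state. Beside it stands the authors' FPKM, which is scaled to length and depth, per the file headers. Whether counting used strand is not stated.

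Gene symbols and positions were taken from RefSeq for GRCm38.p6 (mm10), which matched 15561 of 15605 identifiers. Rounded counts were scaled by TMM (edgeR 4.0.16, R 4.3.3; wild type factor 0.921, knockout factor 1.09). A gene absent from 1 table was given 0 counts there. Genes reaching 50 estimated counts in 1 or both libraries were tested for size against 2-fold. The length trend was a lowess fit of span 0.3 on log2 length. Alternatives were DESeq2 1.42.0 size factors, library totals, median centring, deposited FPKM plus 0.1, other pseudocounts (0.5, 5), other minimums (10, 200, none), thinning, other thresholds (1.5-fold, 4-fold) and the summed beta chains. The procedure was tested on simulated data.

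The genes and the lists were chosen with earlier results of these data known. All 8 genes, all partner chains, and the 3 tested genes of each list with the largest log2 ratio in size were named by rule. Pik3cd, Spi1, Cish, Ccl17, Ccl22 and the cell markers were named beyond it. Coding sequences were aligned with Biopython 1.88. Intervals assume independent reads, which reads without molecular identifiers are not.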

Additional observations from a re-analysis of the deposited data

How the results depend on the processing

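With library totals the log2 ratios were 1.20 for Csf1r, 0.76 for Csf2ra, 0.49 for Csf2rb, 0.81 for Csf2rb2 and 1.11 for Csf3r, with a median of 0.79 over the 6 genes tested. With deposited FPKM they were 1.20, 0.77, 0.49, 0.81 and 1.12, with a median of 0.79. With the length trend subtracted they were 0.75 for Csf1r, 0.70 for Csf2ra, -0.12 for Csf2rb and 0.21 for Csf2rb2, with a median of 0.44. Csf2rb and Csf2rb2 had 0.37 when summed. Each of these values lay outside the counting interval of the TMM value. Of the 6 genes, 2 passed 2-fold upwards with library totals and with deposited FPKM, against 0 with TMM scaling, and 2 were higher at 1.5-fold. One gene, Csf1, was lower past the threshold with the length trend subtracted and at 1.5-fold, a count of 1 against 0. Csf1 was lower and Csf1r, Csf2ra, Csf2rb2 and Csf3r were higher under every alternative run.

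Over all genes, 575 passed 2-fold upwards and 165 downwards. These counts were 1036 and 107 with library totals, 937 and 102 with deposited FPKM, 921 and 436 with a minimum of 10 counts, 273 and 67 with a minimum of 200, and 1458 and 1531 with none. At 1.5-fold they were 1562 and 607, and at 4-fold 40 and 45. With the length trend subtracted 203 were higher. The higher share of these calls was 77.7% with TMM scaling, 90.6% with library totals, 90.2% with deposited FPKM and 53.0% with the length trend subtracted. DESeq2 size factors, median centring, both pseudocounts and thinning left the log2 ratio of each of the 6 genes within its counting interval. No paired analysis was possible because each genotype has 1 library. Leaving out a library was not possible for the same reason.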
